A study of Mus musculus with 24 samples.

Results

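The comparison set 2 groups of 4 bone marrow RNA-seq libraries against each other, both from mice at postnatal day 28 (P28) in which human MLL::ENL had been induced at E10.5, a day of embryonic development. One group has RLT Vav Txp in its titles, a name the labels do not spell out, and is called RLT below. The other has only MLL-ENL and the induction time in its titles and is called ME. The members were chosen by these titles, which gave 8 of the 24 libraries of the series. The series' design text describes a Tet-off mouse model of human MLL::ENL with 4 biological replicates for each age of induction and of analysis. All groups share the sorted population, which the labels give as LSK and the design text as lineage-negative KIT+ progenitors. Strain, sex, the cells in which the transgene is switched on and the lineage antibodies are not given in the sources used here. The labels also do not say what RLT and Vav refer to or what was done to these mice, so whose cells the marrow held is unknown. The RLT titles start with 378R, 378RR, 379nt and 416L, and RLT values are given in that order throughout. The first 2 share the number 378, and what they share beyond it is not stated. Levels in 4 libraries of wild-type (WT) LSK cells and in 4 libraries with MLL::ENL induced at postnatal day 0 (P0-induced ME), all at P28, are given as a description only.

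LSK cells lack lineage markers and carry Sca-1 (coded by Ly6a) and KIT. They hold the blood stem cells and the multipotent progenitors of the marrow. MLL-ENL joins the start of the histone methyltransferase MLL, coded by Kmt2a, to ENL, coded by Mllt1, a part of the machinery that releases RNA polymerase II for elongation. The fusion holds genes such as Hoxa9 and Meis1 switched on, and it causes leukaemia. MLL3, coded by Kmt2c and named in the title of the study, is another methyltransferase of the COMPASS family. Marrow macrophages sit beside stem cells and erythroblasts, clear dying cells and expelled nuclei, and return the iron of their heme to the blood. They are known by the complement component C1q, the receptors F4/80 (Adgre1) and MerTK, and VCAM-1.

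Library totals were 42994217 to 80393500 counts in ME and 42572871 to 73483146 in RLT. The spread between replicates was larger in RLT than in ME, with a biological coefficient of variation of 72.8% against 33.6%. It was 73.0% in WT and 27.4% in P0-induced ME. In Pearson correlations of log2 CPM across 10266 genes, which are not independent replicates, the ME libraries correlated with each other at 0.97 to 0.98, and the RLT libraries among themselves at 0.91 to 0.97. 378R lay closest to ME (0.89 to 0.91) and 416L farthest (0.79 to 0.83). Short genes were relatively high in 3 of the 4 RLT libraries. The median log2 CPM of the shortest 20% of genes minus that of the longest 20% was -0.87 to -0.61 in ME, -0.45 in 378R and 0.12 to 0.24 in the other RLT libraries. It was -0.18 to 0.29 in WT and -0.74 to -0.58 in P0-induced ME. Mitochondrial transcripts took 0.385% to 0.551% of counts in ME and 0.601% to 1.63% in RLT, and ribosomal protein genes 2.60% to 3.12% and 3.43% to 5.61%. In WT these shares were 1.24% to 2.07% and 4.66% to 6.26%, and in P0-induced ME 0.482% to 0.590% and 2.76% to 3.02%. The Y-linked gene Ddx3y measured 74.4, 83.6, 0.0428 and 96.0 CPM in the 4 ME libraries and 0.0438, 0.165, 1.07 and 54.0 CPM in RLT. Xist, which is transcribed from the inactive X chromosome, measured 0.208, 0.0396, 15.0 and 0 CPM in ME and 28.4, 58.9, 45.3 and 3.42 CPM in RLT. Ddx3y was thus high in 3 of the 4 ME libraries and in 1 of the 4 RLT libraries, and both genes were named after their values were seen. The part of the sex of the mice, of gene length or of any single library in the results below was not tested, except where a value without it is given.

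**Figure D1:**
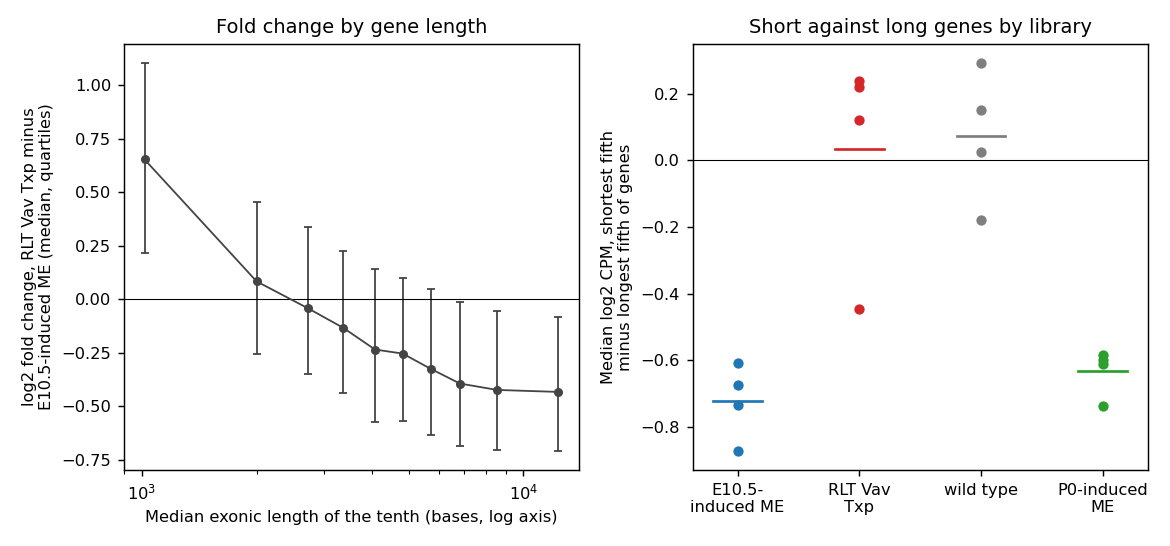
The left panel plots the median and quartiles of the log2 fold change (RLT minus ME) in 10 equal bins of genes ordered by exonic length in bases (log axis), for those with mean log2 CPM at or above 3. The median runs from 0.65 in the shortest bin to -0.43 in the longest. The right panel plots, for each P28 library, the median log2 CPM of the shortest 20% of genes minus that of the longest 20%, with a bar at the group mean. The 4 ME libraries lie below the 4 RLT libraries, and 378R is the RLT library nearest to them.

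Of 23059 genes tested with edgeR over all 24 libraries, 4122 (17.9%) had an adjusted p (Benjamini-Hochberg) below 0.05 and are referred to as called. In RLT 1959 genes (8.5%) were higher and 2163 (9.38%) lower, and 2034 of the called genes differed at least 2-fold. In 5928 genes (25.7%) the values of the groups did not overlap. The median log2 fold change over all genes tested was 0.12, and each log2 difference below is RLT minus ME. Without 416L 2061 genes were called, without 379nt 2258 and without 378RR 2682. The calls numbered 2609, 2553 and 2483 without ME libraries 1, 2 and 3, and 5212 without 378R. Of genes in the shortest of 10 equal bins by exonic length, 40.4% were called higher and 1.07% lower, against 3.51% and 28.3% in the longest bin. Where offsets for gene length and GC content were fitted, 3082 genes were called, 1687 higher and 1395 lower, and 2561 of the original calls were among them. Falls of long genes and rises of short genes that are under 2-fold should be read beside these values.

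**Figure D2:**
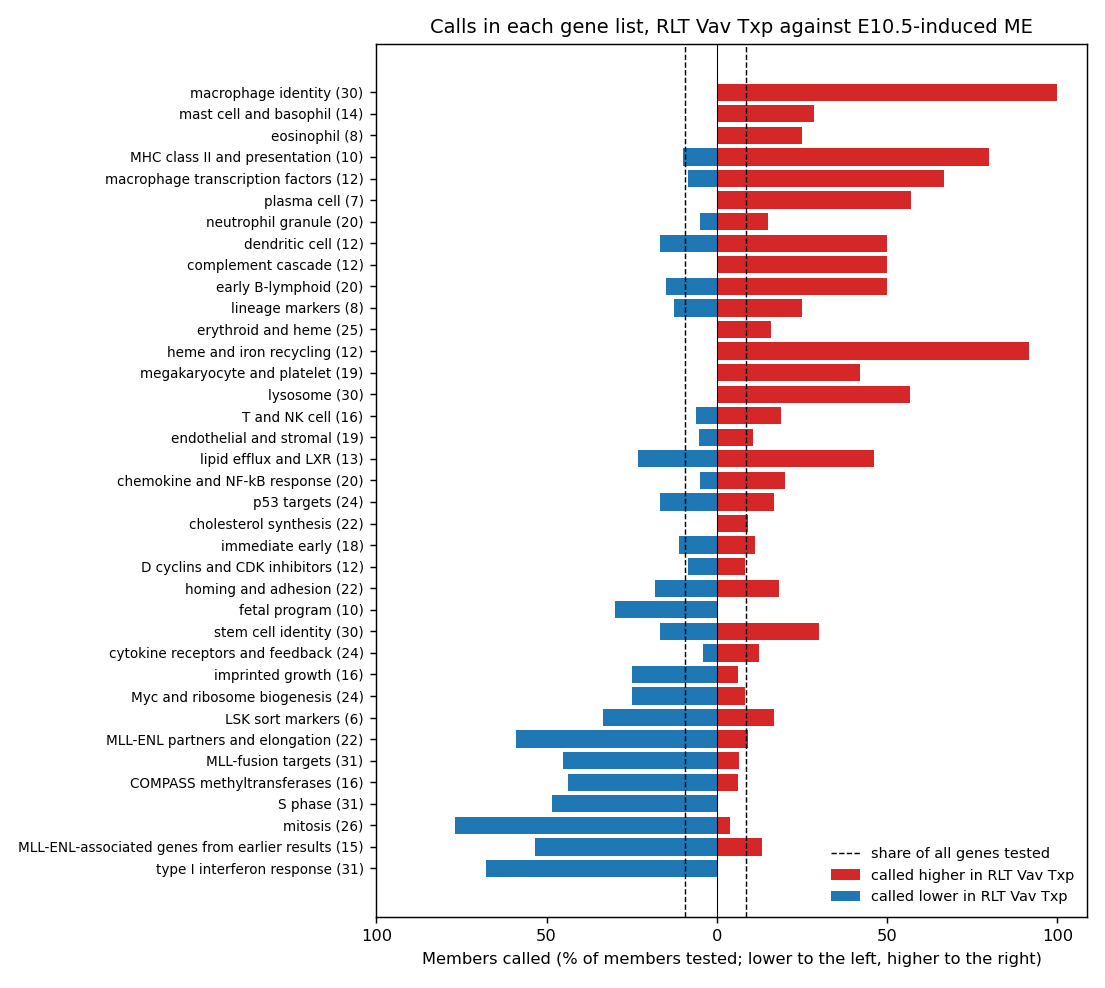
Each bar gives the share of the tested members of a gene list (the number in parentheses) that were called, to the right for higher and to the left for lower in RLT, with lists ordered by median log2 fold change. Dashed lines mark the shares of all genes tested (8.5% and 9.38%). The macrophage identity list reaches 100% to the right, and the mitosis and interferon lists extend farthest to the left.

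All 30 tested genes of the macrophage identity list were higher in RLT, with a median log2 fold change of 5.85, and the groups did not overlap in 29 of them. Their summed level was 432 to 638 CPM in the ME libraries and 3665 to 11528 CPM in RLT, with the lowest sum in 378RR. It was 797 to 1029 CPM in WT and 498 to 578 CPM in P0-induced ME. With offsets for length and GC content 30 members were called higher, and 26 to 30 were when any 1 of the 8 libraries was left out. From bulk RNA, more cells of a type and more RNA per cell cannot be told apart. The 8.5% of all genes called higher is the background for this and the following counts of rises.

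The 3 chains of C1q, which starts the classical complement pathway by binding antibodies and dying cells, were among the largest rises. Their genes lie side by side on chromosome 4 of GRCm38, on the minus strand, from 136880129 to 136886187 (C1qb), from 136889804 to 136893065 (C1qc) and from 136895917 to 136898803 (C1qa). C1qa measured 1.22, 1.56, 2.77 and 1.14 CPM in ME and 478, 105, 287 and 253 CPM in RLT, a log2 difference of 7.37 with SE 1.09 (adjusted p = 0.000263, edgeR). C1qb measured 2.97, 2.03, 6.55 and 1.92 CPM in ME and 678, 174, 478 and 394 CPM in RLT, a log2 difference of 6.99 with SE 1.07 (adjusted p = 0.000362, edgeR). C1qc measured 1.76, 1.29, 4.24 and 0.938 CPM in ME and 511, 115, 367 and 274 CPM in RLT, a log2 difference of 7.25 with SE 1.17 (adjusted p = 0.000541, edgeR). In each of the 3 genes the lowest RLT library, 378RR, still lay far above the highest ME library. The mean in WT was 6.73 ± 3.07 CPM for C1qa (SD, n = 4), and in P0-induced ME it was 1.65 ± 0.438 CPM (SD, n = 4).

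Because the C1q genes moved together, the sequence upstream of their start sites is shown for C1qb and C1qc, from RefSeq on GRCm38.p6; C1qa is named only. Each run covers the 250 bases before the RefSeq start as far as they lie outside the GENCODE gene, 5′ to 3′ on the strand of the gene. These are chr4:136886201-136886450 for C1qb and chr4:136893066-136893164 for C1qc, both on the minus strand. Capitals mark matches, on either strand, to GAGGAA, the PU box bound by PU.1 (coded by Spi1), a factor of the ETS family known for macrophage genes.
C1qb: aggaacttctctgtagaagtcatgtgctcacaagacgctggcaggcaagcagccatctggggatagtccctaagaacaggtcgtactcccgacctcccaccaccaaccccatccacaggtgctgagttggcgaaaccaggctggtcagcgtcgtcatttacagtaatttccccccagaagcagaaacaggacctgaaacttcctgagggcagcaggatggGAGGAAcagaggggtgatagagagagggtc
C1qc: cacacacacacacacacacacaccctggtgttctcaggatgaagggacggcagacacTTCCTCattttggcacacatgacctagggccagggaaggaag
GAGGAA occurred on either strand in the 250 bases upstream of 16 of the 24 macrophage identity genes with an entry (66.7%), of 9 of 21 interferon response genes (42.9%) and of 25.9% of 27025 genes. A match describes the letters only and shows no binding.

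Receptors by which macrophages recognise and engulf dying cells were higher in RLT. Mertk, which binds the bridging proteins on dying cells, measured 0.166, 0.0791, 0.428 and 0.595 CPM in ME and 54.7, 13.2, 47.1 and 34.8 CPM in RLT, a log2 difference of 6.90 with SE 1.02 (adjusted p = 0.000125, edgeR). Axl, a receptor of the same family, measured 20.3, 22.0, 27.8 and 15.8 CPM in ME and 353, 108, 290.3 and 224 CPM in RLT, a log2 difference of 3.50 with SE 0.61 (adjusted p = 0.000871, edgeR). Gas6, which codes for a ligand of both, measured 28.9, 22.0, 27.6 and 25.5 CPM in ME and 61.9, 44.8, 37.8 and 50.3 CPM in RLT, with a log2 difference of 0.91 with SE 0.22 (adjusted p = 0.0063, edgeR), the smallest rise in the list. Mrc1, the mannose receptor, averaged 1.62 ± 0.98 CPM in ME and 97.3 ± 42.5 CPM in RLT (SD, n = 4), a log2 difference of 5.90 with SE 0.79 (adjusted p = 5.78e-05, edgeR). The groups did not overlap in any of these 4 genes.

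Genes used to define macrophages in the marrow rose as well. Adgre1, which codes for F4/80, measured 1.41, 0.989, 1.26 and 1.46 CPM in ME and 182, 29.6, 136 and 119 CPM in RLT, a log2 difference of 6.52 with SE 1.14 (adjusted p = 0.00106, edgeR). Vcam1, an adhesion molecule of marrow macrophages and stroma, measured 8.16, 5.52, 10.7 and 5.17 CPM in ME and 543, 130.2, 349.6 and 397 CPM in RLT, a log2 difference of 5.59 with SE 0.88 (adjusted p = 0.000453, edgeR). Csf1r, the receptor for the macrophage growth factor M-CSF, measured 11.1, 22.5, 19.6 and 14.5 CPM in ME and 343, 62.9, 242 and 188 CPM in RLT, a log2 difference of 3.62 with SE 0.54 (adjusted p = 0.000189, edgeR). 378RR was the lowest RLT library in each of the 3 and still lay above the 4 ME libraries. Fcgr1, the high-affinity IgG receptor, averaged 0.832 ± 0.283 CPM in ME and 14.5 ± 6.05 CPM in RLT (SD, n = 4). Cd68, a glycoprotein of macrophage lysosomes, averaged 27.7 ± 6.51 CPM in ME and 187 ± 81.1 CPM in RLT (SD, n = 4).

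Genes of particular macrophage types differed between the RLT libraries. Vsig4, a complement receptor of Kupffer cells and other resident macrophages, had 0 counts in all ME libraries and measured 0.175, 3.30, 4.27 and 4.46 CPM in RLT. Its mean in RLT was at least 57.3-fold higher than a floor of 3 counts per ME library, and the call was lost without 416L (edgeR adjusted p = 0.0512). Marco, a scavenger receptor of marginal zone and alveolar macrophages, measured 0.083, 0, 0 and 0 CPM in ME and 87.5, 0.51, 7.32 and 0 CPM in RLT, so the groups overlapped and 378R held nearly all of it. The call of Marco was lost with limma voom and without ME library 1. Timd4, a phosphatidylserine receptor of long-lived resident macrophages, measured 0.27, 0.237, 0.486 and 0.229 CPM in ME and 1.01, 3.30, 2.93 and 8.75 CPM in RLT, a log2 difference of 3.69 with SE 1.04 (adjusted p = 0.019, edgeR). The call of Timd4 was lost in 5 of 18 alternatives. Siglec1, which marks the macrophages of erythroblastic islands, measured 0.27, 0, 0.457 and 0.0915 CPM in ME and 23.6, 5.11, 16.4 and 13.3 CPM in RLT, a log2 difference of 6.14 with SE 1.36 (adjusted p = 0.00433, edgeR). Trem2, a lipid receptor, measured 0, 0.105, 0 and 0 CPM in ME and 24.2, 10.3, 40.2 and 43.8 CPM in RLT, with no overlap.

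**Figure D3:**
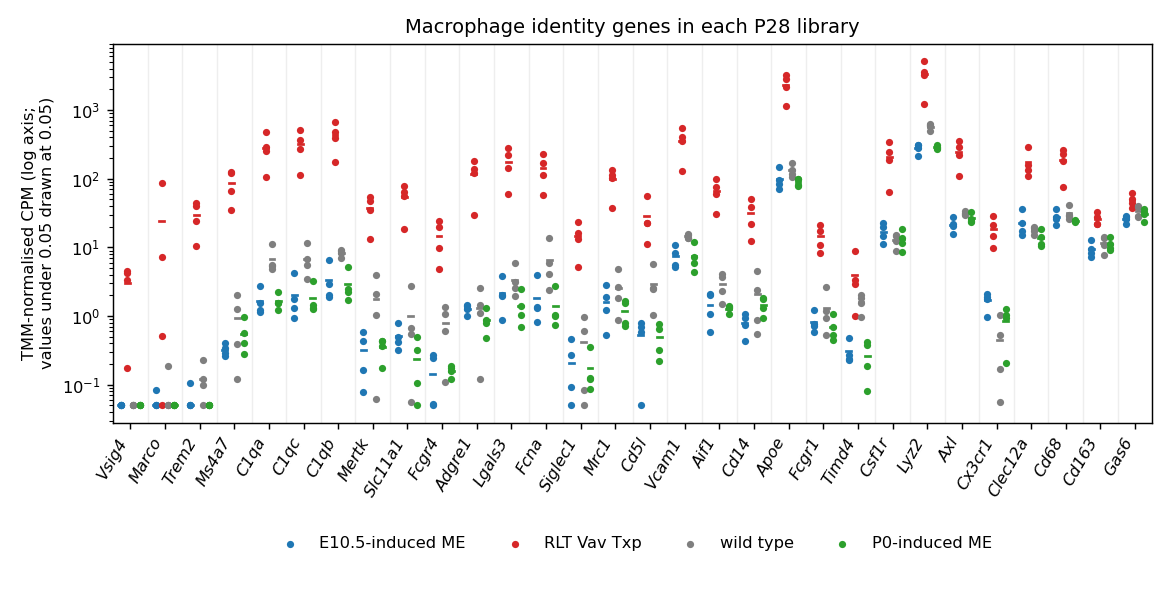
Each point is 1 P28 library, with TMM-normalised CPM on a log axis (values under 0.05 drawn at 0.05) and a bar at the group mean, for the 30 macrophage identity genes ordered by log2 fold change. The RLT points stand above the ME points in 29 genes. In Marco 1 RLT library is at 0 and 378R is at 87.5 CPM.

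Of 12 transcription factors of the macrophage lineage, 8 were called higher and 1 lower, with a median log2 fold change of 2.11. Tfec, a factor of macrophages and osteoclasts, measured 5.79, 4.14, 6.81 and 6.79 CPM in ME and 29.4, 55.0, 64.6 and 34.0 CPM in RLT, a log2 difference of 2.96 with SE 0.41 (adjusted p = 4.16e-05, edgeR). Spi1, which codes for PU.1 and is needed from early progenitors on, measured 236, 219, 284 and 253 CPM in ME and 222, 134, 161 and 160.5 CPM in RLT, a log2 difference of -0.55 with SE 0.16 (adjusted p = 0.0222, edgeR). The groups overlapped in Spi1, and its call was lost with the offsets (edgeR adjusted p = 0.218) and in 5 other alternatives. Maf and Spic, named after their values were seen, rose too. Maf averaged 1.04 ± 0.151 CPM in ME and 37.0 ± 12.7 CPM in RLT (SD, n = 4). Spic, the factor of the iron-recycling macrophages of the spleen and marrow, averaged 9.39 ± 2.13 CPM in ME and 54.3 ± 16.3 CPM in RLT (SD, n = 4), a log2 difference of 2.53 with SE 0.48 (adjusted p = 0.000925, edgeR).

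In the list of heme and iron recycling, 11 of 12 genes were higher in RLT and none was lower, with a median log2 fold change of 1.39. Hmox1, the heme oxygenase that opens the heme ring, measured 7.99, 7.41, 23.8 and 10.8 CPM in ME and 479, 122, 329 and 322 CPM in RLT, a log2 difference of 4.64 with SE 0.76 (adjusted p = 0.000554, edgeR). Slc40a1, which codes for ferroportin, the only known iron exporter of the cell, measured 13.3, 14.7, 20.3 and 13.7 CPM in ME and 609, 143, 509.9 and 436 CPM in RLT, a log2 difference of 4.77 with SE 0.78 (adjusted p = 0.00057, edgeR). No RLT library overlapped with ME in either gene, and 378RR was again the lowest. The ferritin genes Fth1 and Ftl1, named after their values were seen, rose less. Fth1 measured 1532, 1549, 1575 and 1491 CPM in ME and 3387, 2527, 4099 and 3660.4 CPM in RLT, a log2 difference of 1.15 with SE 0.22 (adjusted p = 0.000975, edgeR). Ftl1 measured 491, 474, 503 and 401 CPM in ME and 1823, 953, 1532 and 1204 CPM in RLT, a log2 difference of 1.56 with SE 0.25 (adjusted p = 0.000169, edgeR). Cd163, the receptor for hemoglobin bound to haptoglobin, measured 9.44, 7.15, 12.6 and 8.28 CPM in ME and 27.7, 21.8, 21.9 and 32.3 CPM in RLT, a log2 difference of 1.47 with SE 0.47 (adjusted p = 0.0331, edgeR), and its call was lost in 6 of 18 alternatives.

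Lysosomal genes rose in 17 of 30 cases and fell in none, with a median log2 fold change of 0.69, and with the offsets 19 were higher. Lgmn, an endopeptidase that processes cathepsins and antigens, measured 12.3, 11.2, 12.0 and 13.8 CPM in ME and 163, 44.6, 157 and 94.5 CPM in RLT, a log2 difference of 3.22 with SE 0.62 (adjusted p = 0.00183, edgeR). Ctsh, a cathepsin, measured 28.5, 28.2, 28.03 and 31.6 CPM in ME and 203, 89.6, 265 and 171 CPM in RLT, a log2 difference of 2.65 with SE 0.35 (adjusted p = 2.49e-05, edgeR). Both stood clear of ME in every RLT library. Among 13 genes of lipid efflux and the LXR pathway, 6 were higher and 3 lower, with 1 lower without ME library 3 or 379nt. Apoe, the lipoprotein that carries exported cholesterol, measured 82.8, 71.3, 147 and 97.0 CPM in ME and 3173, 1144, 2792 and 2150.1 CPM in RLT, a log2 difference of 4.54 with SE 0.40 (adjusted p = 2.02e-07, edgeR). Lpl, the lipase that frees fatty acids from lipoproteins, measured 3.82, 0.949, 1.79 and 0.915 CPM in ME and 136, 37.8, 159 and 149 CPM in RLT, a log2 difference of 6.01 with SE 0.88 (adjusted p = 0.000178, edgeR). Srebf1, which drives fatty acid synthesis, averaged 168 ± 20.9 CPM in ME and 101 ± 14.3 CPM in RLT (SD, n = 4). Its fall was not called with the offsets (edgeR adjusted p = 0.392) and in 4 other alternatives. Of 22 cholesterol synthesis genes 2, Fdps and Insig1, were called higher, near the background, and none without ME library 1 or 2, 378RR or 379nt. Insig1, a brake on the pathway, was at 26.7 ± 7.44 CPM in ME and 46.4 ± 3.78 CPM in RLT (SD, n = 4).

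Downstream of C1q, 6 of 12 genes of the complement cascade were higher and none was lower. C3, the central component, measured 3.07, 2.48, 1.87 and 6.04 CPM in ME and 153, 9.32, 31.5 and 28.5 CPM in RLT, a log2 difference of 4.06 with SE 1.07 (adjusted p = 0.0149, edgeR), with 378R far above the other 3. The call of C3 was lost without ME library 2 or 3 (edgeR adjusted p up to 0.0541). Cfp, which codes for properdin, the stabiliser of the alternative pathway, measured 69.2, 58.6, 76.4 and 54.3 CPM in ME and 349.6, 78.3, 189 and 137 CPM in RLT, a log2 difference of 1.55 with SE 0.35 (adjusted p = 0.00446, edgeR). The chemokine and NF-kB list had 4 of 20 genes higher and 1 lower. Ccl6, a chemokine of the myeloid lineage, measured 2.72, 2.56, 7.00 and 5.70 CPM in ME and 80.1, 38.7, 235 and 181 CPM in RLT, a log2 difference of 4.89 with SE 0.70 (adjusted p = 0.000112, edgeR). Nfkb1 was the lower one, at 191 ± 25.1 CPM in ME and 126 ± 33.4 CPM in RLT (SD, n = 4), and its call was lost with the offsets (edgeR adjusted p = 0.233) and in 3 other alternatives.

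Of 10 genes of MHC class II presentation, 8 were higher in RLT and 1 was lower, with a median log2 fold change of 2.40. H2-Eb1, a beta chain, measured 6.97, 7.37, 7.21 and 13.1 CPM in ME and 799, 517, 885 and 726 CPM in RLT, a log2 difference of 6.40 with SE 1.18 (adjusted p = 0.00155, edgeR). H2-Aa, an alpha chain, measured 10.6, 8.72, 9.90 and 17.4 CPM in ME and 759, 534, 908 and 686 CPM in RLT, a log2 difference of 5.95 with SE 1.08 (adjusted p = 0.00143, edgeR). The means in WT were 18.2 ± 5.85 CPM for H2-Eb1 and 30.0 ± 8.59 CPM for H2-Aa (SD, n = 4). Cd74, the invariant chain, and Ciita, the master switch of class II transcription, were named after their values were seen. Cd74 measured 111, 98.0, 63.8 and 91.6 CPM in ME and 2798, 1513, 3180.2 and 2729 CPM in RLT, a log2 difference of 4.81 with SE 0.66 (adjusted p = 0.0001, edgeR). Ciita measured 2.05, 2.58, 3.24 and 3.04 CPM in ME and 18.2, 14.0, 18.0 and 26.9 CPM in RLT, a log2 difference of 2.82 with SE 0.69 (adjusted p = 0.00658, edgeR). H2-Ob, part of the chaperone that restrains peptide loading in B cells, went the other way, with 69.8, 53.5, 90.0 and 101 CPM in ME and 60.5, 42.3, 29.3 and 44.9 CPM in RLT, a log2 difference of -0.83 with SE 0.20 (adjusted p = 0.006, edgeR), and the groups overlapped.

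Class II genes are shared by macrophages, dendritic cells and B cells, and markers of the other 2 cell types also moved. Of 12 dendritic cell genes 6 (Irf4, Batf3, Zbtb46, Cd209a, Clec9a and Xcr1) were called higher and 2 (Flt3 and Tcf4) lower. Leaving out any 1 of the 8 libraries left 1 to 3 higher. The rises also depended on the filter for low counts. With 10 counts required in at least 12 libraries 9 members were tested and 3 were higher. Without a filter 2 were higher. The summed level of this list was lower in RLT (303 to 703 CPM) than in ME (1258 to 1577 CPM), and Flt3, described below, is a member. Cd209a, the DC-SIGN of monocyte-derived dendritic cells, had 0 counts in all ME libraries and measured 6.75, 7.26, 6.01 and 23.1 CPM in RLT, at least 202-fold higher than the floor. It was named after its values were seen. Siglech, a defining marker of plasmacytoid dendritic cells, averaged 0.299 ± 0.226 CPM in ME and 0.997 ± 1.62 CPM in RLT (SD, n = 4) and was not called (edgeR adjusted p = 0.533). Tcf4, the factor of that lineage, measured 168, 164, 217 and 181 CPM in ME and 146, 96.3, 82.9 and 95.5 CPM in RLT, a log2 difference of -0.79 with SE 0.17 (adjusted p = 0.00235, edgeR).

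Jchain, which links IgA and IgM into polymers in plasma cells, was the third-largest rise among the genes the naming rule admits. It measured 0.415, 26.6, 0.443 and 31.8 CPM in ME and 2303, 544, 2309.6 and 2413 CPM in RLT, a log2 difference of 7.00 with SE 1.52 (adjusted p = 0.00477, edgeR). Both groups were uneven, with 2 ME libraries under 1 CPM and 378RR far under the other RLT libraries. Of 7 plasma cell genes 4 were higher and none was lower, with sums of 219 to 282 CPM in ME and 758 to 2686 CPM in RLT. Jchain alone, at 544 to 2413 CPM, made up most of the sum in each RLT library. The rises numbered 2 without ME libraries 1, 2 or 3 or without 378R, 379nt or 416L. In the early B-lymphoid list of 20 genes, 10 were called higher and 3 lower, and 6 were higher without ME library 1 or 2. Blnk, the adaptor of the B cell receptor, measured 6.00, 2.74, 8.78 and 5.51 CPM in ME and 35.0, 11.1, 23.1 and 34.8 CPM in RLT, a log2 difference of 2.17 with SE 0.64 (adjusted p = 0.0223, edgeR), and the call was lost in 5 of 18 alternatives. The summed level of the list was nevertheless lower, at 552 to 713 CPM in ME and 221 to 553 CPM in RLT, and Dntt made up most of it in ME.

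Dntt codes for the terminal transferase of early lymphoid progenitors. It measured 511, 389.7, 558 and 582 CPM in ME and 310.2, 75.8, 34.1 and 29.2 CPM in RLT, a log2 difference of -2.18 with SE 0.71 (adjusted p = 0.039, edgeR). 378R kept the highest level of the 4 RLT libraries, and the call was lost in 9 of 18 alternatives. Bank1, a B cell scaffold protein, measured 74.2, 73.6, 36.8 and 37.1 CPM in ME and 15.6, 5.81, 15.1 and 16.8 CPM in RLT, a log2 difference of -2.06 with SE 0.31 (adjusted p = 0.0001, edgeR). Satb1, a chromatin organiser of lymphoid progenitors and one of the 12 largest falls, measured 216, 177, 238 and 202 CPM in ME and 66.3, 17.3, 13.7 and 23.2 CPM in RLT, a log2 difference of -2.79 with SE 0.42 (adjusted p = 0.000166, edgeR). Lck, the kinase of the T cell receptor, measured 109, 92.9, 92.3 and 93.4 CPM in ME and 32.1, 25.5, 15.5 and 14.0 CPM in RLT, a log2 difference of -2.15 with SE 0.25 (adjusted p = 3.61e-06, edgeR). The groups did not overlap in any of these 4 genes. Other T and NK cell genes did not follow Lck, as 3 of 16 (Gata3, Cd4 and Klrb1c) were higher. Gata3, a factor of T cells and stem cells, measured 2.86, 5.18, 5.27 and 4.37 CPM in ME and 23.6, 28.2, 37.6 and 38.3 CPM in RLT, a log2 difference of 2.85 with SE 0.32 (adjusted p = 2.37e-06, edgeR). Its mean was 21.7 ± 4.64 CPM in WT and 21.3 ± 2.06 CPM in P0-induced ME (SD, n = 4). Cd4 measured 11.5, 9.06, 15.8 and 9.47 CPM in ME and 184, 14.4, 67.0 and 31.3 CPM in RLT, and the groups overlapped.

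Granulocyte markers were less uniform. Of 20 neutrophil granule genes 3 (Lyz2, Ctsg and Ms4a3) were called higher and 1 (Gfi1) lower, against 11 higher where only the 2 groups were fitted and 8 with DESeq2. The rises numbered 1 without any of ME libraries 1, 3 and 4, 378RR, 379nt and 416L. The summed level was 1549 to 2298 CPM in ME and 6751, 3803, 7525 and 10810 CPM in RLT. These sums include Lyz2, which is also in the macrophage identity list and made up a large part of them in RLT. Lyz2, the lysozyme that macrophages share with neutrophils, measured 279, 213, 310.3 and 312 CPM in ME and 3608, 1217, 5121 and 3176 CPM in RLT, a log2 difference of 3.56 with SE 0.63 (adjusted p = 0.00102, edgeR). The late granule genes S100a8, S100a9, Ltf, Camp and Ngp did not pass the test, with edgeR adjusted p from 0.0875 (S100a8) to 0.405 (Ltf). Mpo and Elane, proteins of the early granules named after their values were seen, did not either. Mpo measured 818, 707, 1065 and 1226 CPM in ME and 1804, 906, 564 and 2423 CPM in RLT (edgeR adjusted p = 0.554). Elane measured 67.9, 84.5, 74.1 and 218 CPM in ME and 425, 566, 393 and 1686 CPM in RLT, without overlap (edgeR adjusted p = 0.137). 416L was the highest RLT library in both. Gfi1, the repressor that guides granulocyte fate and guards stem cell quiescence, fell from 85.5, 88.2, 91.4 and 99.7 CPM in ME to 42.7, 31.9, 28.1 and 24.2 CPM in RLT, a log2 difference of -1.52 with SE 0.20 (adjusted p = 2.77e-05, edgeR).

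Mast cell and basophil genes were higher in 4 of 14 cases (Mcpt8, Cpa3, Fcer1a and Prss34), and none was lower, while 8 were higher where only the 2 groups were fitted. Mcpt8, a protease of basophils, measured 2.16, 1.23, 2.98 and 2.88 CPM in ME and 30.7, 43.4, 18.5 and 44.8 CPM in RLT, a log2 difference of 3.89 with SE 0.99 (adjusted p = 0.01, edgeR). Cpa3, a carboxypeptidase of mast cells, measured 5.79, 6.43, 12.0 and 4.58 CPM in ME and 50.6, 44.1, 31.3 and 77.7 CPM in RLT, a log2 difference of 2.82 with SE 0.89 (adjusted p = 0.0353, edgeR), and its call was lost in 9 of 18 alternatives. Fcer1a, which binds IgE and was named after its values were seen, had 2 counts over the 4 ME libraries and measured 9.60, 13.4, 3.72 and 17.6 CPM in RLT. Cma1, Tpsb2 and Mcpt4, defining genes of tissue mast cells, were at or under 3 counts in every ME library. Each of them exceeded 3 counts in at least 1 RLT library, and none was called. Eosinophil genes were called higher in 2 of 8 cases (Ccr3 and Ear2), with sums of 5.02 to 252 CPM in ME and 445 to 1747 CPM in RLT, the highest in 416L. No eosinophil gene was called without ME library 1 or 2 or without 416L, and 5 were with limma voom.

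Genes of the platelet lineage, which stem cells with a platelet bias also express, rose in 8 of 19 cases and fell in none, with a median log2 fold change of 1.39, against 13 higher and 2 lower with limma voom. Pf4, platelet factor 4, measured 5.50, 5.66, 6.28 and 5.90 CPM in ME and 93.1, 152, 115 and 240.4 CPM in RLT, a log2 difference of 4.68 with SE 0.50 (adjusted p = 2.37e-06, edgeR). Its mean in WT was 16.6 ± 3.58 CPM (SD, n = 4). Selp, the P-selectin of platelet granules, measured 7.47, 4.71, 18.1 and 10.1 CPM in ME and 102, 127, 102 and 98.0 CPM in RLT, a log2 difference of 3.41 with SE 0.45 (adjusted p = 2.64e-05, edgeR). Mmrn1, the multimerin of platelets and stem cells, measured 29.1, 23.1, 29.7 and 21.4 CPM in ME and 198, 340.2, 291 and 241 CPM in RLT, a log2 difference of 3.37 with SE 0.35 (adjusted p = 1.26e-06, edgeR). Mmrn1 averaged 115 ± 12.9 CPM in WT and 97.9 ± 7.31 CPM in P0-induced ME (SD, n = 4), so ME held the lowest of the 4 group means and RLT the highest. Itga2b, the integrin CD41, was named after its values were seen and measured 7.78, 9.57, 23.2 and 13.9 CPM in ME and 84.0, 71.5, 56.4 and 99.8 CPM in RLT, a log2 difference of 2.52 with SE 0.39 (adjusted p = 0.000143, edgeR). The groups did not overlap in any of the 4 genes.

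Erythroid genes were called higher in 4 of 25 cases, and in 1 to 3 when any 1 of the 8 libraries was left out. Where only the 2 groups were fitted 17 were called higher, and with DESeq2 11. Their summed level was 2259 to 2715 CPM in ME and 4129 to 4748 CPM in RLT. Aqp1, the water channel of red cells, measured 23.9, 34.0, 28.3 and 21.2 CPM in ME and 136, 108, 63.7 and 77.5 CPM in RLT, a log2 difference of 1.84 with SE 0.43 (adjusted p = 0.00524, edgeR). Epor, the erythropoietin receptor, measured 4.96, 6.96, 9.08 and 5.22 CPM in ME and 29.6, 26.8, 16.4 and 18.0 CPM in RLT, a log2 difference of 1.79 with SE 0.50 (adjusted p = 0.0148, edgeR), and the call was lost without ME library 1. Car1, an early erythroid carbonic anhydrase, measured 71.7, 109.6, 102 and 115 CPM in ME and 792, 565, 356 and 551 CPM in RLT, without overlap, but its call was lost in 11 of 18 alternatives. Hba-a1, an alpha globin named after its values were seen, measured 59.0, 130.3, 70.4 and 67.6 CPM in ME and 314, 289.7, 608 and 425 CPM in RLT and did not pass the test (edgeR adjusted p = 0.11). Endothelial and stromal genes were called higher in 2 of 19 cases (Cxcl12 and Adipoq) and lower in 1 (Pecam1), near the background, and none was called higher without ME library 2 or 416L. Cxcl12, the stromal chemokine that holds stem cells in the marrow, measured 9.94, 6.24, 6.40 and 5.79 CPM in ME and 54.1, 32.2, 22.3 and 131 CPM in RLT, a log2 difference of 3.08 with SE 0.85 (adjusted p = 0.0165, edgeR), and the call was lost in 3 of 18 alternatives. Cdh5 and Col1a1, which define endothelial cells and matrix-forming stroma, averaged 1.08 ± 0.988 and 0.913 ± 0.177 CPM in RLT (SD, n = 4).

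The genes that define the sort, Kit and Ly6a, were not called with the main settings. Kit measured 1116, 1015, 1241 and 889 CPM in ME and 895, 871, 619 and 834 CPM in RLT, a log2 difference of -0.40 with SE 0.39 (adjusted p = 0.53, edgeR). Ly6a measured 210.4, 209.7, 253 and 248 CPM in ME and 179, 218, 189.9 and 192 CPM in RLT, a log2 difference of -0.24 with SE 0.20 (adjusted p = 0.457, edgeR), and with the offsets it was called lower (log2 fold change -0.73, edgeR adjusted p = 0.0111). The groups overlapped in both, and both defining markers were present in all 8 libraries. Of 8 lineage markers tested 2 were called higher, Cd4 among them, and 1, Cd5, lower. No marker was called lower in 11 of 18 alternatives, and 1 marker was higher without ME library 1 or 2 or 379nt, against 4 where only the 2 groups were fitted. Itgam, the myeloid lineage marker Mac-1, averaged 14.2 ± 5.90 CPM in ME and 11.2 ± 1.17 CPM in RLT (SD, n = 4) and was not called (edgeR adjusted p = 0.477). Flt3, the receptor of multipotent and lymphoid progenitors, measured 1212, 1000.1, 1261 and 1117 CPM in ME and 414, 161, 89.7 and 225 CPM in RLT, a log2 difference of -2.37 with SE 0.33 (adjusted p = 5.15e-05, edgeR). Its mean was 1175 ± 59.3 CPM in WT and 1348 ± 124 CPM in P0-induced ME (SD, n = 4), and each RLT library lay below every ME library. Cd34, a sialomucin of progenitors, measured 1162, 1008, 1161 and 1087 CPM in ME and 721, 471, 313 and 574 CPM in RLT, a log2 difference of -1.09 with SE 0.20 (adjusted p = 0.000887, edgeR). Slamf1, which codes for CD150 and marks stem cells, measured 7.55, 8.87, 8.68 and 7.73 CPM in ME and 17.9, 44.4, 36.2 and 11.9 CPM in RLT, a log2 difference of 1.75 with SE 0.48 (adjusted p = 0.0133, edgeR). Its call was lost without 378RR, where it was highest (edgeR adjusted p = 0.063).

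Of 30 stem cell identity genes, 9 were higher in RLT and 5 lower, with a median log2 fold change of -0.10, and 5 were higher without ME library 1. With only the P28 groups 8 were lower. Vwf, which codes for von Willebrand factor and marks platelet-biased stem cells, measured 10.0, 9.44, 17.6 and 8.85 CPM in ME and 27.8, 62.1, 36.1 and 88.3 CPM in RLT, a log2 difference of 2.22 with SE 0.62 (adjusted p = 0.0162, edgeR), and the call was lost in 5 of 18 alternatives (adjusted p up to 0.0635, edgeR). The next genes were named after their values were seen. Procr, which codes for EPCR and marks stem cells of the highest potency, measured 54.8, 52.4, 45.6 and 48.4 CPM in ME and 63.3, 104, 97.5 and 88.4 CPM in RLT, a log2 difference of 0.81 with SE 0.16 (adjusted p = 0.00113, edgeR). Hlf and Mecom, factors that maintain stem cells, fell. Hlf measured 521, 594, 521 and 522 CPM in ME and 297, 234, 227 and 258 CPM in RLT, a log2 difference of -1.09 with SE 0.17 (adjusted p = 0.000179, edgeR). Mecom measured 322, 308, 306 and 262 CPM in ME and 148, 160.1, 160.2 and 104 CPM in RLT, a log2 difference of -1.06 with SE 0.24 (adjusted p = 0.00396, edgeR), against 105 ± 12.5 CPM in WT (SD, n = 4). Vwf and Procr thus lay above ME in every RLT library and the 2 factors below it.

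**Figure D4:**
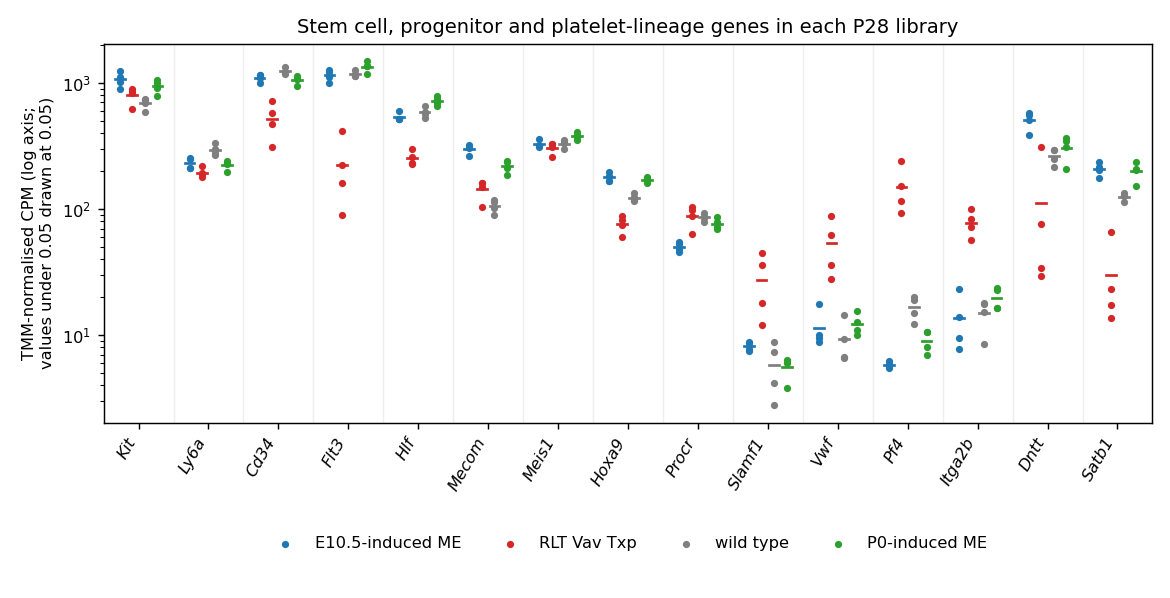
Each point is 1 P28 library, with TMM-normalised CPM on a log axis and a bar at the group mean, for 15 genes of stem cells, progenitors and the platelet lineage. Flt3, Cd34, Hlf, Hoxa9 and Satb1 lie lower in all 4 RLT libraries than in all 4 ME libraries, and Pf4, Itga2b and Slamf1 higher. Kit, Ly6a and Meis1 overlap.

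Both parts of the fusion have a mouse counterpart in the table, while the level of the human transgene itself was not analysed here. Kmt2a measured 56.5, 53.4, 58.4 and 57.3 CPM in ME and 44.8, 44.2, 39.4 and 53.5 CPM in RLT, a log2 difference of -0.31 with SE 0.17 (adjusted p = 0.226, edgeR). Mllt1 measured 134, 145, 139.6 and 124 CPM in ME and 97.3, 55.5, 59.1 and 56.2 CPM in RLT, a log2 difference of -1.02 with SE 0.26 (adjusted p = 0.00999, edgeR), and the call was lost without 416L (edgeR adjusted p = 0.0529). Kmt2c, the gene for MLL3, measured 45.3, 34.3, 48.5 and 33.9 CPM in ME and 33.7, 28.7, 24.6 and 17.1 CPM in RLT, a log2 difference of -0.64 with SE 0.24 (adjusted p = 0.0674, edgeR), which did not pass the test although the groups did not overlap.

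Of 31 targets of MLL fusions, 14 were called lower in RLT, 2 (Mllt3 and Pbx3) higher and 15 neither, with a median log2 fold change of -0.55. With the offsets 12 were lower and 4 higher, with a median of -0.29, and 1 was higher without ME library 1, 2 or 4, 378R or 378RR. Their summed level was 4543 to 5188 CPM in ME, 2177 to 3152 CPM in RLT, 3777 to 4034 CPM in WT and 4747 to 5205 CPM in P0-induced ME. The background for falls is 9.38% of all genes tested. The list has a median exonic length of 7030 bases, in the range where long genes fell. Hoxa9 measured 184, 166, 168 and 195 CPM in ME and 87.4, 81.6, 74.4 and 59.6 CPM in RLT, a log2 difference of -1.23 with SE 0.17 (adjusted p = 4.28e-05, edgeR). Hoxa10 measured 141, 138, 122 and 121 CPM in ME and 50.5, 57.5, 61.0 and 65.1 CPM in RLT, a log2 difference of -1.16 with SE 0.22 (adjusted p = 0.000867, edgeR). Hoxa7 measured 51.1, 50.6, 48.9 and 61.2 CPM in ME and 27.3, 26.0, 22.6 and 13.3 CPM in RLT, a log2 difference of -1.25 with SE 0.21 (adjusted p = 0.00038, edgeR). These 3 homeobox genes, which MLL fusions hold active in leukaemia, lay under ME in every RLT library, and they also lay under the WT means of 123 ± 8.52, 76.4 ± 7.83 and 41.8 ± 7.59 CPM (SD, n = 4).

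Among the other genes of the Hoxa cluster, Hoxa5 averaged 24.0 ± 2.20 CPM in ME and 12.7 ± 0.973 CPM in RLT (SD, n = 4), a log2 difference of -0.91 with SE 0.31 (adjusted p = 0.0422, edgeR), and its call was lost in 13 of 18 alternatives. Hoxa3 averaged 9.56 ± 1.34 CPM in ME and 4.65 ± 2.15 CPM in RLT (SD, n = 4) and was not called (edgeR adjusted p = 0.111). Hoxa2, Hoxa4, Hoxa6 and Hoxa13 averaged at most 3.62 CPM in either group and were not called. Meis1, the partner of Hoxa9 in MLL leukaemia, measured 321, 312, 361 and 319 CPM in ME and 329, 327, 313 and 259 CPM in RLT, a log2 difference of -0.10 with SE 0.19 (adjusted p = 0.779, edgeR). It was named after its values were seen. Mllt3, which codes for AF9 and was a rise, measured 62.8, 75.4, 67.1 and 55.0 CPM in ME and 87.6, 146, 158 and 120.5 CPM in RLT, a log2 difference of 0.98 with SE 0.19 (adjusted p = 0.00111, edgeR). Pbx3, another Hoxa9 partner, averaged 12.3 ± 2.14 CPM in ME and 24.9 ± 9.85 CPM in RLT (SD, n = 4), with overlap, and its call was lost in 6 of 18 alternatives.

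Genes that work with the fusion at the polymerase had 13 of 22 members called lower and 2 (Mllt3 and Ell2) higher, but with the offsets 5 were lower. Leaving out 416L left 3 lower, and leaving out ME libraries 1, 2 or 3, 378RR or 379nt left 6 to 8. Leaving out any library but 416L left 1 higher. The list has a median length of 7726 bases. Ctr9, a scaffold of the PAF1 complex, measured 309, 275, 332 and 269 CPM in ME and 201, 95.3, 100.05 and 77.1 CPM in RLT, a log2 difference of -1.32 with SE 0.39 (adjusted p = 0.0233, edgeR), and the call was lost in 6 of 18 alternatives. The mean of Ctr9 in WT was 98.3 ± 13.6 CPM (SD, n = 4). Supt6, an elongation factor that travels with the polymerase, averaged 117 ± 22.4 CPM in ME and 53.1 ± 13.8 CPM in RLT (SD, n = 4), and its call was lost with the offsets (edgeR adjusted p = 0.0599) and in 7 other alternatives. Of 16 COMPASS genes 7 were lower and 1 higher, against 4 and 1 with the offsets. Without 416L 3 were lower, and without ME library 2 or 3, 378RR or 379nt 4 were. Men1, which codes for menin and ties MLL to chromatin, measured 203, 196, 175 and 167 CPM in ME and 117, 93.1, 85.0 and 84.9 CPM in RLT, a log2 difference of -0.97 with SE 0.16 (adjusted p = 0.000343, edgeR). With the offsets the log2 fold change of Men1 was -0.62 (edgeR adjusted p = 0.000725). Dpy30, a shared core subunit and a short gene, averaged 114 ± 13.4 CPM in ME and 206 ± 58.5 CPM in RLT (SD, n = 4), with 378R among the ME values, and it was not called with the offsets (edgeR adjusted p = 0.594) and in 8 other alternatives.

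Genes of the fetal stem cell programme were lower in 3 of 10 cases, and none was higher, while 1 was higher with DESeq2, with the offsets or without 378R. Igf2bp2, an RNA-binding protein of fetal stem cells and an MLL fusion target, measured 47.7, 58.2, 45.7 and 34.7 CPM in ME and 2.50, 4.50, 4.51 and 9.64 CPM in RLT, a log2 difference of -3.14 with SE 0.37 (adjusted p = 5.75e-06, edgeR). Igf2bp3, its relative and a partner of Lin28b, measured 12.6, 12.4, 11.6 and 7.73 CPM in ME and 0.555, 0.661, 1.53 and 0.378 CPM in RLT, a log2 difference of -3.85 with SE 0.33 (adjusted p = 8.47e-08, edgeR). Its mean in WT was 8.71 ± 2.43 CPM (SD, n = 4), above each RLT library. Lin28b, the RNA-binding protein that sets fetal identity, measured 5.73, 5.55, 3.81 and 2.88 CPM in ME and 0.0584, 0.0551, 0.882 and 3.92 CPM in RLT and did not pass the test (edgeR adjusted p = 0.0778). In Lin28b 416L fell among the ME values. Both Igf2bp3 and Lin28b were named after their values were seen. Hmga2, a chromatin protein under control of the same pathway, measured 28.1, 46.3, 38.1 and 34.3 CPM in ME and 7.41, 16.1, 19.3 and 26.1 CPM in RLT, a log2 difference of -1.09 with SE 0.32 (adjusted p = 0.0197, edgeR), and its call was lost with the offsets (edgeR adjusted p = 0.143) and in 3 other alternatives.

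Of 16 imprinted genes of growth control 4 were lower and 1 was higher. All 5 are named here after their values were seen. Dlk1, a paternally expressed Notch family ligand, measured 3.47, 4.30, 4.26 and 3.66 CPM in ME and 0.584, 0.578, 0.65 and 0.18 CPM in RLT, a log2 difference of -2.97 with SE 0.35 (adjusted p = 4.51e-06, edgeR). Meg3, from the same imprinted region, measured 0.332, 0.475, 0.286 and 0.526 CPM in ME and 0.0438, 0.0275, 0.0464 and 0.0899 CPM in RLT, a log2 difference of -2.93 with SE 0.72 (adjusted p = 0.00721, edgeR). H19 measured 0.477, 1.05, 0.757 and 0.366 CPM in ME and had 3 counts over the 4 RLT libraries, and Peg3, whose call was lost without ME library 2 or 416L, averaged 1.65 ± 1.43 CPM in ME and 0.107 ± 0.0737 CPM in RLT (SD, n = 4). These genes were low in ME as well, and their summed list level was 173 to 235 CPM in ME and 179 to 213 CPM in RLT. Kcnq1ot1, the antisense transcript of the Kcnq1 domain, measured 3.11, 4.18, 6.55 and 3.57 CPM in ME and 9.11, 12.8, 11.0 and 25.1 CPM in RLT, a log2 difference of 1.73 with SE 0.30 (adjusted p = 0.000427, edgeR). No strand setting of the counting is given in the sources used here, so reads of Kcnq1ot1 and Kcnq1 cannot be told apart.

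The largest falls were in genes that ME expressed above WT or at a similar level. Postn, which codes for the matrix protein periostin, measured 89.5, 94.4, 49.0 and 49.4 CPM in ME and 4.15, 2.04, 0.882 and 3.16 CPM in RLT, a log2 difference of -4.78 with SE 0.36 (adjusted p = 1.19e-08, edgeR). Chga, chromogranin A of secretory granules, measured 89.4, 71.9, 46.5 and 41.0 CPM in ME and 8.41, 1.12, 3.58 and 3.88 CPM in RLT, a log2 difference of -3.87 with SE 0.60 (adjusted p = 0.000175, edgeR). Hnf4a, a nuclear receptor best known from liver, measured 227, 239, 225 and 167 CPM in ME and 33.8, 7.12, 10.3 and 16.1 CPM in RLT, a log2 difference of -3.67 with SE 0.41 (adjusted p = 4.31e-06, edgeR). Chga averaged 6.54 ± 1.09 CPM in WT and 26.6 ± 3.74 CPM in P0-induced ME, and Hnf4a 74.2 ± 7.26 and 162 ± 5.87 CPM (SD, n = 4). RLT thus lay under both ME groups in Chga and Hnf4a. Nsg2, a vesicle protein of neurons, measured 35.1, 35.8, 28.05 and 33.1 CPM in ME and 4.69, 2.71, 1.63 and 3.06 CPM in RLT, a log2 difference of -3.45 with SE 0.46 (adjusted p = 2.73e-05, edgeR). Ddx4, the helicase known as Vasa in germ cells, measured 174, 164, 130.1 and 155 CPM in ME and 23.4, 22.7, 16.8 and 3.47 CPM in RLT, a log2 difference of -3.23 with SE 0.36 (adjusted p = 2.37e-06, edgeR). Ddx4 averaged 146 ± 24.1 CPM in WT (SD, n = 4), close to ME, so that only RLT was low. Msrb3, a methionine sulfoxide reductase, measured 86.1, 87.4, 97.2 and 78.5 CPM in ME and 16.5, 9.96, 5.57 and 9.62 CPM in RLT, a log2 difference of -3.06 with SE 0.28 (adjusted p = 1.82e-07, edgeR). Mn1, a leukaemia-linked transcriptional cofactor, measured 45.9, 43.2, 57.6 and 59.1 CPM in ME and 16.0, 6.89, 4.62 and 1.80 CPM in RLT, a log2 difference of -2.81 with SE 0.45 (adjusted p = 0.000223, edgeR).

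Slc16a11, a monocarboxylate transporter, measured 124, 110.2, 125 and 121 CPM in ME and 34.3, 12.0, 15.7 and 2.95 CPM in RLT, a log2 difference of -2.88 with SE 0.44 (adjusted p = 0.000143, edgeR). Ptgir, the prostacyclin receptor, measured 47.7, 42.7, 33.7 and 34.1 CPM in ME and 11.2, 3.92, 5.97 and 2.00 CPM in RLT, a log2 difference of -2.78 with SE 0.40 (adjusted p = 5.34e-05, edgeR). 416L was the lowest RLT library in Ddx4, Slc16a11, Mn1 and Ptgir, and 378R the highest in each of them. A list of 15 genes that earlier results of these data had tied to MLL-ENL had 8 members lower and 2 higher, with a median log2 fold change of -1.05. Since that list was drawn from these libraries, the count is not independent evidence of its direction. Every fall named in these 2 paragraphs was called in each of the 18 alternatives.

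**Figure D5:**
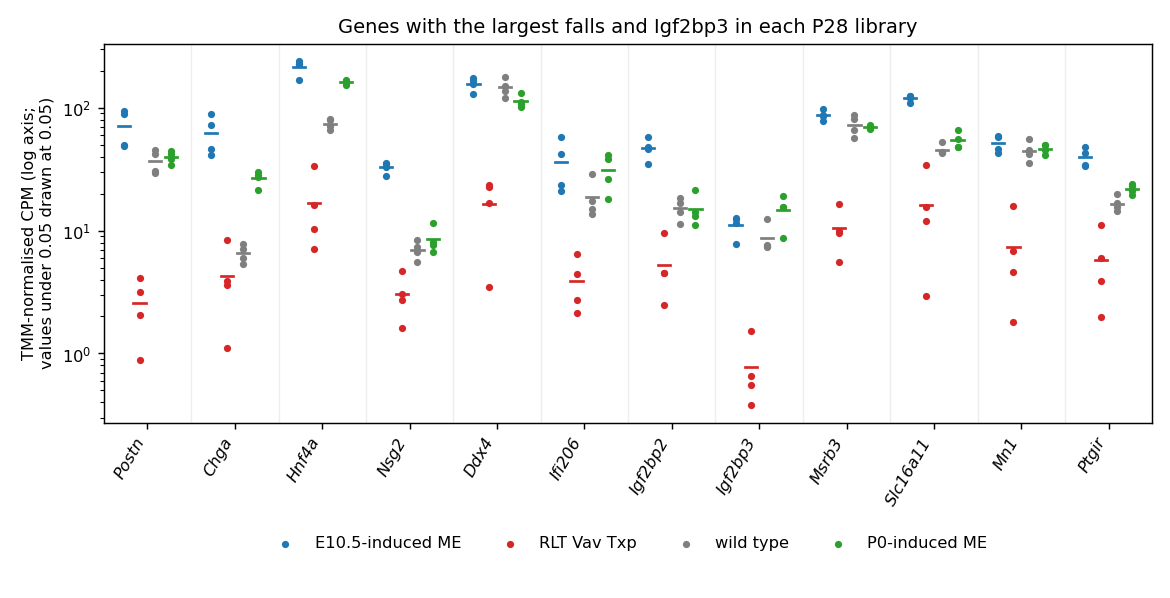
Each point is 1 P28 library, with TMM-normalised CPM on a log axis and a bar at the group mean, for 11 of the 12 largest falls by the naming rule and for Igf2bp3. The 4 RLT points lie under the 4 ME points in each gene. In Chga and Nsg2 the WT points lie close to the RLT points, and in Ddx4, Msrb3 and Mn1 close to the ME points.

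Other large rises included Plbd1 and Aldh1a1, which are not in the macrophage identity list, and Lgals3 and Fcna, which are. Plbd1, a lysosomal phospholipase of myeloid cells, measured 1.97, 0.989, 0.8 and 2.40 CPM in ME and 165, 49.7, 140.0 and 133 CPM in RLT, a log2 difference of 6.32 with SE 0.59 (adjusted p = 5.13e-07, edgeR). Aldh1a1, which makes retinoic acid, measured 0.996, 2.08, 2.34 and 2.10 CPM in ME and 121, 195, 167 and 90.0 CPM in RLT, a log2 difference of 6.25 with SE 1.24 (adjusted p = 0.00252, edgeR). In Aldh1a1 378RR was the highest RLT library. Lgals3, galectin-3 of macrophages, measured 1.93, 3.82, 2.03 and 0.869 CPM in ME and 145, 60.5, 279 and 220.2 CPM in RLT, a log2 difference of 6.33 with SE 0.56 (adjusted p = 2.59e-07, edgeR). Fcna, a ficolin of resident macrophages, measured 1.37, 1.29, 3.90 and 0.824 CPM in ME and 226, 58.7, 115 and 168 CPM in RLT, a log2 difference of 6.25 with SE 1.20 (adjusted p = 0.00212, edgeR).

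Most genes of the type I interferon response were lower in RLT. Interferon activates the factor ISGF3, which binds response elements upstream of its target genes. Of 31 genes 21 were called lower and none higher, with a median log2 fold change of -1.08. With the offsets 20 were lower, and 16 to 21 when any 1 library was left out, while 1 gene was called higher in 9 of 18 alternatives. The sum of the list was 1977 to 2994 CPM in ME, 1183 to 1410 CPM in RLT, 1852 to 2303 CPM in WT and 1878 to 2422 CPM in P0-induced ME, so RLT was lowest. Upstream sequences are shown for the 3 called genes with the smallest adjusted p among those that hold the element, which were named after their values were seen. They come from RefSeq on GRCm38.p6, 5′ to 3′ on the strand of the gene, outside the GENCODE gene. They are chr5:120907526-120907775 for Oas1a and chr5:120777662-120777909 for Oas3, both on the minus strand, and chr19:34640639-34640870 for Ifit1 on the plus strand. Capitals mark matches to GAAANNGAAA on either strand, where N is any base, and overlapping matches run together.
Oas1a: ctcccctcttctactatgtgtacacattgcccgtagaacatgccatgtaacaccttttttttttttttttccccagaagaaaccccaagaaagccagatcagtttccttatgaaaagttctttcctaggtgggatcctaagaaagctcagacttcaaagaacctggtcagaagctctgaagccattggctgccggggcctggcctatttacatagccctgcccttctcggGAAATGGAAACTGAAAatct
Oas3: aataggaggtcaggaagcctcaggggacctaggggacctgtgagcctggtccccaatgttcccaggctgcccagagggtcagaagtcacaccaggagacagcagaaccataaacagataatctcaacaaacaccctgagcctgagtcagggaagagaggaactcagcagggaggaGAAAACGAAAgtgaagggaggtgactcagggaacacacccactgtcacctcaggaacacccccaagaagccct
Ifit1: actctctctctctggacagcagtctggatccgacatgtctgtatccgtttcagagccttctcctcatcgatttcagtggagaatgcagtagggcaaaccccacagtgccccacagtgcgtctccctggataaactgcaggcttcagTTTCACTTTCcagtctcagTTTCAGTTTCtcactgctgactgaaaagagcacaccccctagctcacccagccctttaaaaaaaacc
The motif occurred in the 250 bases upstream of 11 of the 21 genes of the list that have an entry (52.4%), of 8 of the 16 among them that were called, of 2 of 24 macrophage identity genes (8.33%) and of 3.46% of 27025 genes.

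Oas1a, Oas2 and Oas3 code for synthases of the 2-5A signal that activates RNase L. Oas1a measured 62.6, 58.1, 88.8 and 72.3 CPM in ME and 36.1, 37.4, 31.9 and 20.5 CPM in RLT, a log2 difference of -1.16 with SE 0.18 (adjusted p = 0.000135, edgeR). Oas2 measured 18.4, 17.8, 27.5 and 37.1 CPM in ME and 4.00, 6.14, 6.78 and 4.602 CPM in RLT, a log2 difference of -2.23 with SE 0.30 (adjusted p = 2.51e-05, edgeR). Oas3 measured 55.7, 74.1, 99.8 and 72.4 CPM in ME and 27.7, 19.9, 22.6 and 22.7 CPM in RLT, a log2 difference of -1.70 with SE 0.31 (adjusted p = 0.000756, edgeR). In these 3 neighbouring genes of chromosome 5 no RLT library reached the lowest ME library. Ifit1, which binds viral RNA, measured 47.3, 40.8, 80.7 and 82.8 CPM in ME and 17.1, 26.3, 36.1 and 23.2 CPM in RLT, a log2 difference of -1.29 with SE 0.31 (adjusted p = 0.00637, edgeR). Oasl1, a relative of the synthases that limits Irf7 protein, measured 23.2, 20.6, 43.7 and 28.5 CPM in ME and 8.59, 11.5, 5.95 and 3.85 CPM in RLT, a log2 difference of -1.96 with SE 0.30 (adjusted p = 0.000118, edgeR). Irf7, the factor that amplifies the response, was named after its values were seen and measured 92.9, 90.99, 182 and 157 CPM in ME and 44.4, 42.9, 36.9 and 27.0 CPM in RLT, a log2 difference of -1.79 with SE 0.28 (adjusted p = 0.000126, edgeR). Ifi206, a DNA sensor of the interferon-inducible p200 family among the 12 largest falls, measured 23.6, 20.9, 58.2 and 42.3 CPM in ME and 6.40, 4.43, 2.74 and 2.12 CPM in RLT, a log2 difference of -3.20 with SE 0.43 (adjusted p = 2.64e-05, edgeR). ME libraries 3 and 4 were the highest in Irf7, Ifit1 and Ifi206. The p200 family holds near-identical copies, so the split of its reads is uncertain.

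Mitosis genes were mostly lower. Of 26 mitosis genes 20 were called lower and 1 higher, with a median log2 fold change of -0.76, and with the offsets 18 were lower. Without 379nt 11 were lower, and without 378RR or 416L 13 were. The summed level was 4246 to 5436 CPM in ME, 2385 to 3786 CPM in RLT and 2468 to 3156 CPM in WT, so RLT overlapped with WT. Bub1b, a kinase of the spindle checkpoint, measured 279, 286, 232 and 202 CPM in ME and 157, 76.8, 58.6 and 81.5 CPM in RLT, a log2 difference of -1.42 with SE 0.30 (adjusted p = 0.00267, edgeR). Tpx2, which nucleates spindle microtubules, measured 238, 258, 183 and 184 CPM in ME and 145, 77.8, 72.0 and 80.1 CPM in RLT, a log2 difference of -1.20 with SE 0.25 (adjusted p = 0.00198, edgeR). Top2a and Mki67, common marks of cycling cells, were named after their values were seen. Top2a measured 809.8, 847, 643 and 638 CPM in ME and 539, 281, 196 and 293 CPM in RLT, a log2 difference of -1.17 with SE 0.25 (adjusted p = 0.00248, edgeR). Mki67 measured 159, 167, 148 and 126 CPM in ME and 124, 55.4, 58.8 and 78.1 CPM in RLT, a log2 difference of -0.92 with SE 0.23 (adjusted p = 0.0067, edgeR). 378R was the highest RLT library in each of the 4. Cenpa, the histone of centromeres, was the single rise, at 155, 155, 135 and 137 CPM in ME and 155, 239, 200.1 and 302 CPM in RLT, with overlap, and its call was lost in 7 of 18 alternatives.

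In S phase 15 of 31 genes were lower and none was higher, with 11 under the offsets and 9 without 416L, and 4 were higher where only the 2 groups were fitted. Uhrf1, which recruits the maintenance DNA methyltransferase, measured 406, 427, 380.5 and 281 CPM in ME and 279.8, 112, 101 and 112 CPM in RLT, a log2 difference of -1.30 with SE 0.27 (adjusted p = 0.00183, edgeR). Chaf1a, a histone chaperone of replication, averaged 112 ± 19.2 CPM in ME and 45.3 ± 19.9 CPM in RLT (SD, n = 4), and its call was lost with the offsets (edgeR adjusted p = 0.0745) and in 7 other alternatives. Among 12 D cyclins and CDK inhibitors 1 was higher and 1 lower, near the background. Cdkn2c, the inhibitor p18 that limits stem cell division, measured 19.8, 22.0, 20.7 and 22.9 CPM in ME and 70.9, 60.8, 72.9 and 54.2 CPM in RLT, a log2 difference of 1.60 with SE 0.32 (adjusted p = 0.00164, edgeR). Ccnd1, cyclin D1, measured 36.6, 29.0, 29.6 and 20.5 CPM in ME and 19.9, 19.9, 11.6 and 3.16 CPM in RLT, and its call was lost in 8 of 18 alternatives.

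Of 24 genes of Myc and ribosome biogenesis 6 were lower and 2 higher, with the rises near the background. The number of falls ran from 1 without 379nt or 416L to 12 without 378R. It was 2 or 3 without ME libraries 1, 2 or 3 or without 378RR. Neither rise, Npm1 or Gnl3, was called without ME library 3, and 1 was without ME library 1 or 4, 378RR, 379nt or 416L. Utp20 and Rrp12, long genes of ribosome assembly, lost their calls with the offsets (edgeR adjusted p = 0.0642 and 0.074) and in 7 and 9 other alternatives. Npm1, the nucleolar chaperone, measured 604, 783, 580.4 and 646 CPM in ME and 824, 1121, 1052 and 1045 CPM in RLT, a log2 difference of 0.63 with SE 0.20 (adjusted p = 0.0295, edgeR). Gnl3, the nucleostemin of stem cell nucleoli, averaged 149 ± 37.1 CPM in ME and 266 ± 55.1 CPM in RLT (SD, n = 4), a log2 difference of 0.83 with SE 0.22 (adjusted p = 0.0123, edgeR), and the calls of Npm1 and Gnl3 were lost in 6 and 1 of 18 alternatives. Of 24 p53 targets 4 (Gdf15, Fas, Pmaip1 and Plk2) were higher and 4 (Phlda3, Xpc, Sesn1 and Btg2) lower, and 1 to 3 were higher when any 1 of the 8 libraries was left out. Falls numbered 2 with the offsets, with plain totals and without ME library 1 or 3, 378RR, 379nt or 416L. Phlda3, an inhibitor of Akt, measured 20.8, 19.4, 18.7 and 21.2 CPM in ME and 9.25, 6.86, 5.74 and 5.36 CPM in RLT, a log2 difference of -1.56 with SE 0.22 (adjusted p = 4.16e-05, edgeR). Xpc, which finds bulky DNA lesions, measured 267, 241, 294 and 256 CPM in ME and 149, 93.2, 95.3 and 90.6 CPM in RLT, a log2 difference of -1.30 with SE 0.19 (adjusted p = 5.6e-05, edgeR). Gdf15, a secreted stress signal named after its values were seen, measured 0, 0.105, 0.386 and 0.366 CPM in ME and 5.61, 1.91, 6.22 and 6.47 CPM in RLT, and its call was lost in 9 of 18 alternatives. Of 18 immediate early genes 2 (Fos and Atf3) were called higher and 2 lower, near the background. The 2 lower ones, Btg2 and Jund, were not called with the offsets (edgeR adjusted p = 0.0556 and 0.21) and in 12 and 5 other alternatives.

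Of 24 cytokine receptors and feedback genes 3 were called higher, Csf1r, Csf2ra and Epor, and 1, Flt3, was lower. These shares were 12.5% and 4.17%, against 8.5% and 9.38% of all genes tested. Without ME library 1 the rises numbered 1, and with the offsets 5, while 8 were lower with limma voom. Of 22 genes of homing and adhesion 4 were higher and 4 lower, with 2 lower without ME library 3, 378RR or 416L. Sirpa, the receptor for the CD47 signal on macrophages, measured 94.5, 100.5, 96.8 and 83.3 CPM in ME and 505, 108, 348 and 281 CPM in RLT, a log2 difference of 1.73 with SE 0.32 (adjusted p = 0.000843, edgeR). Itgal, which codes for the alpha chain of LFA-1, measured 152, 146, 197 and 148 CPM in ME and 77.8, 16.2, 16.3 and 55.7 CPM in RLT, a log2 difference of -1.95 with SE 0.40 (adjusted p = 0.00237, edgeR). Itga9, an integrin that binds osteopontin and VCAM-1, averaged 34.0 ± 4.18 CPM in ME and 15.3 ± 4.89 CPM in RLT (SD, n = 4), and its call was lost with the offsets (edgeR adjusted p = 0.0689) and in 4 other alternatives. Pecam1, an adhesion molecule of endothelium and progenitors, measured 120.4, 122, 165 and 116 CPM in ME and 76.7, 62.9, 50.7 and 48.7 CPM in RLT, a log2 difference of -1.13 with SE 0.32 (adjusted p = 0.0161, edgeR), and the call was lost in 4 of 18 alternatives. Sirpa and Itgal did not overlap between the groups, and in Sirpa 378RR, at 108 CPM, lay just above the highest ME library.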

How the data were processed

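The authors deposited raw read counts per Ensembl gene for 24 LSK libraries as 1 table. Per the labels' protocols, the RNA kit was Qiagen RNeasy Plus and the library chemistry Clontech SMARTer. The submitters' processing notes name STAR 2.7.9a, Subread, featureCounts 2.0.3 and GRCm38, while the settings for strand and multiple matches are not given in the sources used here. Of 55774 entries, 287 repeats of an ID were dropped, and 55141 of 55487 IDs matched a GENCODE M21 gene. The members, gene lists and tests were chosen with earlier results of these data known.

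Genes with enough counts by filterByExpr (minimum count 10) were given TMM factors and modelled with the robust quasi-likelihood model of edgeR 4.0.16 (R 4.3.3) over 24 libraries with 1 mean for each of 6 groups and 18 residual degrees of freedom. Calls used a Benjamini-Hochberg adjusted p under 0.05. Levels are TMM-normalised CPM. Log2 CPM used a prior count of 2, and genes with no more than 3 counts in each library of 1 group were taken as at that floor, which covers counting error only. The procedure was tested on simulated data drawn with the same spread in every group. That test does not cover the larger spread in RLT than in ME. The p-values measure the spread between libraries, and whether 378R and 378RR come from separate animals is not stated.

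Genes named by rule were the 12 largest rises and 12 largest falls among called genes whose groups were apart and whose mean log2 CPM reached 3, up to 2 called genes per list and direction, the checks Kit, Ly6a, Kmt2a, Mllt1 and Kmt2c, and all macrophage identity and Hoxa genes. Results of a few genes are not reported here. Predicted models, receptor segments and sex markers were left out of the rule, and all other named genes were chosen after their values were seen. Alternatives were RLE factors, plain totals, DESeq2 1.42.0, limma 3.58.1 voom with quality weights, no filter, 10 counts in at least 12 libraries, fits of the 2 groups or of the 16 P28 libraries, 378R and 378RR summed, and each of the 8 libraries left out. Offsets for gene length and GC content were added after seeing the data. Figures used Python 3.11.15 and matplotlib 3.10.9.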

Additional observations from a re-analysis of the deposited data

Results flagged for a closer look

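Groups of 4 libraries were examined for the genes named by rule. The gap of the farthest library to its nearest neighbour was divided by the range of the group. Ratios above Dixon's 95% critical value are given here. For independent values from a normal distribution, chance alone gives about 1 in 20 groups. Here 26 of 258 groups (10.1%) exceeded the value, and whether the CPM values meet those conditions was not tested. In ME all other libraries were at 0 for Marco and Trem2, so any count in the remaining library exceeds the value.

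378R stood apart from the other 3 RLT libraries in C3 at 153 CPM against 9.32 to 31.5, Dntt at 310.2 CPM against 29.2 to 75.8, Hcfc1 at 138 CPM against 65.5 to 74.3 and Uhrf1 at 279.8 CPM against 101 to 112. It was also the highest in Tpx2 at 145 CPM against 72.0 to 80.1, Xpc at 149 CPM against 90.6 to 95.3, Srebf1 at 122 CPM against 92.2 to 94.6, Mllt1 at 97.3 CPM against 55.5 to 59.1 and Marco at 87.5 CPM against 0 to 7.32. It was the lowest in Dpy30 at 119 CPM against 228 to 241 and Gnl3 at 183 CPM against 288 to 299. In Dntt, Dpy30, Hcfc1, Uhrf1, Tpx2, Xpc, Gnl3, Srebf1 and Mllt1 the value of 378R lay toward those of ME, and in C3 and Marco away from them.

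378RR stood apart in Jchain at 544 CPM against 2303 to 2413, Bank1 at 5.81 CPM against 15.1 to 16.8 and Selp at 127 CPM against 98.0 to 102. 379nt stood apart in Hoxa13 at 1.95 CPM against 0.0413 to 0.0539.

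In ME, library 3 stood apart in Vwf at 17.6 CPM against 8.85 to 10.0, Pecam1 at 165 CPM against 116 to 122, Itgal at 197 CPM against 146 to 152 and Timd4 at 0.486 CPM against 0.229 to 0.27. ME library 1 did in Lck at 109 CPM against 92.3 to 93.4, Cxcl12 at 9.94 CPM against 5.79 to 6.40 and Marco at 0.083 CPM against 0, ME library 2 in Trem2 at 0.105 CPM against 0, and ME library 4 in H2-Eb1 at 13.1 CPM against 6.97 to 7.37, Ctsh at 31.6 CPM against 28.03 to 28.5 and Hoxa13 at 0.297 CPM against 0.0428 to 0.083.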

How the results depend on the processing

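No paired analysis was possible because the RLT titles carry no replicate number. The 4122 calls became 8112 (3917 higher, 4195 lower) with limma voom and 7071 (3460 and 3611) with only the 4 groups at P28. Rises numbered 3276 with only the 2 groups compared. Falls numbered 1316 without a filter on low counts and 1395 with the offsets for length and GC content. Leaving out 1 library in turn gave 2061 to 5212 calls, 1048 to 2378 of them higher and 951 to 2834 lower. The fewest calls came without 416L and the most without 378R. The cause was not tested. The split of calls into higher and lower moved by less than 10 percentage points under each other scaling. The directions of uncalled genes turned in 3 cases. Kmt2a had a log2 fold change of 0.15 and Meis1 of 0.12 with the offsets. Leaving out 1 library in turn gave -0.14 to 0.0074 for Meis1 and -1.31 to 3.08 for Hoxa13.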
